A study of Homo sapiens with 4 samples.

Results

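Desmosomes are spot junctions that hold epithelial cells together and tie their keratin filaments across the cell border. Desmogleins and desmocollins, which are cadherins, bridge the gap between cells. Plakophilins, armadillo proteins under the membrane, gather them into plaques, and desmoplakin, a plakin, links the plaque to keratin. In simple epithelia such as the luminal layer of the breast, DSG2 and DSC2 are the cadherins usually found in these junctions.

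The loci described here are those of 7 desmosome genes: the plakins DSP and PPL, the plakophilins PKP2 and PKP3, the cadherins DSC2 and DSG2, and PERP, a tetraspan membrane protein needed for desmosome assembly in mouse stratified epithelia. Chromatin from T47D was immunoprecipitated for ELF5, an ETS factor of luminal and alveolar breast epithelium, according to the sample titles. The antibody listed for these samples is sc-376737. Their protocol text names only antibodies against KLF5 and CEBPB in other cell lines, so the target of the antibody rests on the titles. T47D is an established line of human breast epithelium of the luminal A type, grown in RPMI with serum and insulin and given no treatment. The series comprised 3 ELF5 ChIP replicates and 1 input. The authors' deposited data analysed here were 1 peak list on hg19 without values of single replicates. Peaks therefore have no replicate error here, and no group was tested against another. Members were the peaks whose summit lay in a fixed window around each gene. They numbered 77 of 115384 peaks, in 7 windows of 900 kb in all. The windows extend past the genes and no hg19 gene annotation was used, so a peak is assigned to a window and not to a promoter, exon or intron.

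The windows held many ELF5 peaks at 3 genes and few at the other 4. PKP3 had 26 peaks, PPL 24 and DSP 16, which together made 66 of the 77, or 85.7%. PKP2 had 6, DSC2 and DSG2 had 2 each, and PERP had 1. The 7 windows together carried 8.56 peaks per 100 kb, against 3.80 over chromosomes 1 to 22 and X, a ratio of 2.25. This ratio belonged to the 3 rich windows, since PKP2, DSC2, DSG2 and PERP lay below the density of the whole list. By role, the windows of the 2 plakins held 40 peaks, or 15.1 per 100 kb, and those of the 2 plakophilins 32, or 11.4. Of these 32, PKP3 gave 26 and PKP2 gave 6. The windows of the 2 cadherins held 4, or 1.57 per 100 kb, and that of the tetraspan PERP 1, or 1.0.

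The height of a peak is given as the authors' deposited fold enrichment over local background. Peaks among the highest 10% of folds in the whole list, from a fold of 11.99, are called strong. Of the member peaks 12 were strong, which is 15.6% (exact binomial 95% interval 8.32% to 25.6%), beside 10.0% of the whole list. The interval includes the share of the whole list, and neighbouring peaks are not independent of each other. The strong peaks were spread over the windows of 5 genes, with 4 at PKP3, 3 at PPL, 2 at DSP, 2 at PKP2 and 1 at DSC2. DSG2 and PERP had none. The median fold of the member peaks was 4.56 (order-statistic 95% interval 3.70 to 5.53), against 3.66 in the whole list, and the folds ran from 2.20 to 26.9. This interval too treats the peaks as independent, although most came from the PKP3, PPL and DSP windows. The difference between the medians was not tested. The median background of the member peaks, 3 fragments, stood beside the 3.11 of the whole list.

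Support for the individual peaks varied. The authors' q was under 0.05 for 65 of the 77, or 84.4%, beside 87.5% of the list. Their −log10 q was 5 or more for 41, or 53.2%, beside 36.7% of the list. The fragment pileup behind each fold, recovered from the fold and p, had a median of 17 in the members and 16 in the list. At that depth a typical fold is loosely determined. The range in brackets after each fold is its exact Poisson 95% interval, computed from the pileup at a fixed background, and covers counting error only. The interval lay wholly above the threshold of strong peaks at 8 of the 12 strong peaks and spanned it at 4. It also spanned the threshold at 7 peaks that were not strong, so the line between them is not sharp.

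**Figure D1:**
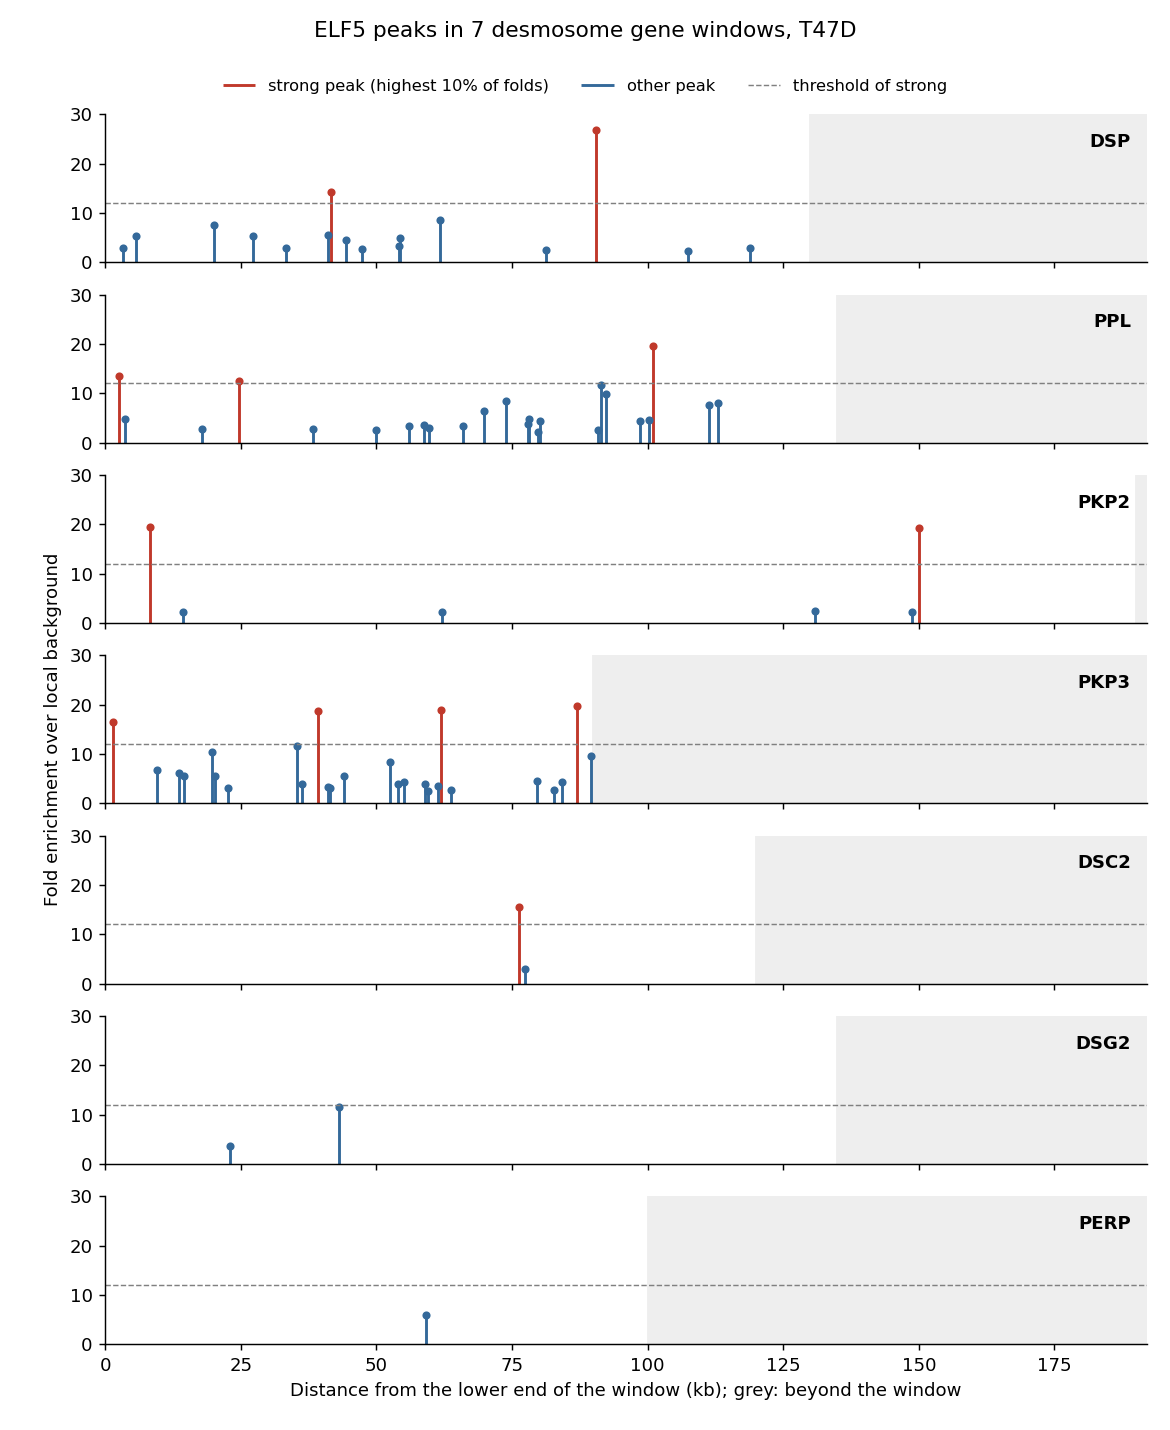
Fold enrichment of each ELF5 peak (vertical axis) against the distance of its summit from the lower end of the gene window in kb (horizontal axis), 1 row per gene. Strong peaks are red and the dashed line is the fold of 11.99 where they begin. PKP3, PPL and DSP carry 66 of the 77 peaks, and the PKP2 row is nearly empty between 2 high peaks.

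DSP encodes desmoplakin, the plakin that anchors keratin filaments at the desmosome. Its window, 7500 to 7630 kb of chromosome 6 in band 6p24.3, held the highest peak of all 7 windows. That peak covered chr6:7590276-7591201 with a fold of 26.9 (22.3 to 32.1), from a pileup of 117 over a background of 3, and ranked 2447 in the whole list by fold. Its interval did not overlap that of any other peak in the window. The second, 48.9 kb below it, covered chr6:7541456-7543550 with a fold of 14.2 (11 to 18).

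This second DSP peak was 2095 bp wide, one of 517 peaks of at least 2000 bp in the list. Its summit lay 127 bp from the lower end, with 1967 bp of the peak above it, so the enriched stretch was one-sided. A narrower peak with a fold of 5.60 (3.71 to 8.15) lay just below it, at chr6:7540793-7541092. The third highest, at chr6:7561564-7561941, had a fold of 8.57 (6.33 to 11.4). The other 12 DSP peaks had folds from 2.20 to 7.45, and 2 peaks of the window had a q of 0.05 or more. They were more crowded on the lower side. The longest stretch without a summit, 19.5 kb, ran from 7561720 to 7581258, and 4 of the 16 summits lay at or above its upper end.

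DSP was denser in peaks than its surroundings, which is a description of 1 list and was not tested. Its 12.3 peaks per 100 kb were 3.20 times the 3.85 of its flanks, which are stretches on both sides that together are as long as the window. They were 3.53 times the 3.49 of the band. Of all 130 kb tiles along chromosomes 1 to 22 and X, 8.69% held at least 16 peaks, and 28.2% held at least 1 strong peak. At least 2 strong peaks, the number at DSP, were held by 11.4%. Light Giemsa bands, meaning unstained ones and those of the palest stained class, tend to be gene-rich. In tiles confined to them the share with at least 16 peaks was 15.6%, but the DSP band itself is darker and not among them. With flanks of double length the flanking density was 5.77. In the RefSeq gene order DSP lies between RIOK1 and SNRNP48, and which gene the peaks of the window belong to, the highest included, was not analysed here.

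**Figure D2:**
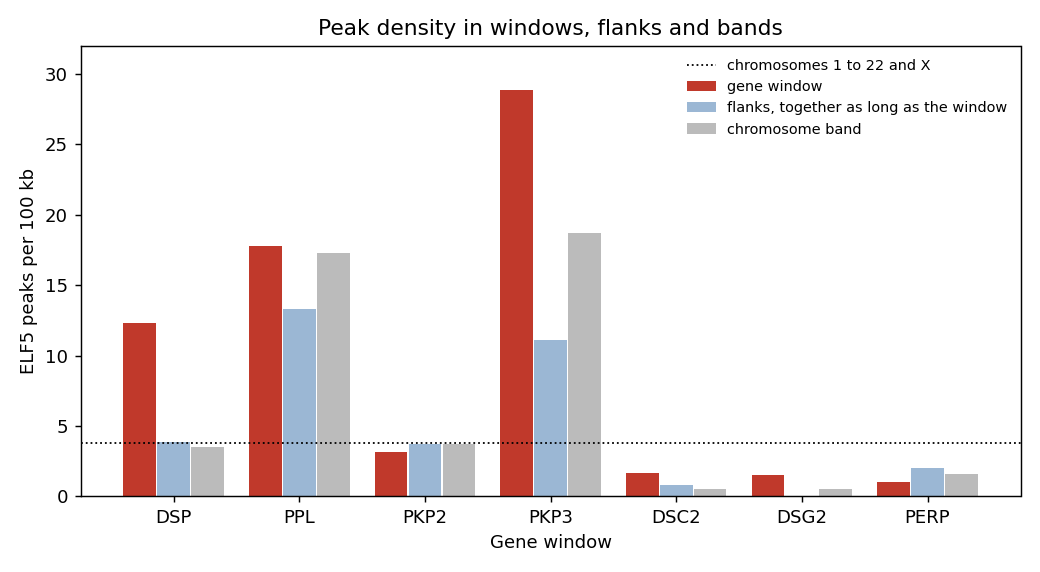
ELF5 peaks per 100 kb (vertical axis) in each gene window, in its flanks of the same total length and in its chromosome band. The dotted line is the density over chromosomes 1 to 22 and X, 3.80. DSP, PKP3, DSC2 and DSG2 exceed both their flanks and their bands, DSC2 and DSG2 with 2 peaks each. PPL exceeds its flanks and is close to its band, and PKP2 and PERP lie below both.

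PPL encodes periplakin, a plakin that binds keratin filaments and is found at desmosomes and in the cornified envelope. Its 24 peaks in 4895 to 5030 kb of chromosome 16, band 16p13.3, included 3 strong ones. The highest covered chr16:4995652-4996248 with a fold of 19.6 (15.6 to 24.2) and a pileup of 82 over a background of 2.86. The other strong peaks, at chr16:4896528-4898299 and chr16:4919516-4919793, had folds of 13.5 (10.3 to 17.4) and 12.4 (9.40 to 16.1). Their intervals largely overlapped each other, and that of the highest at its lower end.

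Above the middle of the PPL window lay 14 of its 24 summits, among them that of the highest peak. A pair of peaks at chr16:4986163-4986654 and chr16:4986792-4987605 had folds of 11.6 (8.92 to 14.9) and 9.78 (7.07 to 13.2). The first of them is the member closest below the threshold of strong peaks. The peak at chr16:5006016-5006495 had as many fragments as the highest peak, a pileup of 82, but over a background of 9, the highest of any member, and its fold was 7.56 (6.03 to 9.36). It ranked 19889 in the list by fold and 11765 by p. The other 18 peaks had folds from 2.20 to 8.5, and 3 in the window had a q of 0.05 or more.

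The density at PPL, 17.8 peaks per 100 kb, was 1.33 times that of its flanks, 13.3, and 1.03 times that of band 16p13.3, 17.2. Of 135 kb tiles, 4.81% held at least as many peaks (8.93% in light bands) and 28.9% held a strong one (41.8% in light bands). At least 3 strong peaks, the number at PPL, were held by 5.12% of all such tiles, and the share in light bands was not computed. With flanks of double length the flanking density was 14.8. The PPL window is therefore rich in peaks against the genome but close to its own band. PPL lies between UBN1 and SEC14L5 in the RefSeq order. The strong peak nearest the lower end of the window had its summit 2515 bp from that end, on the UBN1 side. Which gene it belongs to was not analysed here.

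PKP3 encodes plakophilin 3, an armadillo protein that binds desmosomal cadherins and desmoplakin. Its window, 355 to 445 kb of chromosome 11 in band 11p15.5, was the shortest of the 7 and the richest, with 26 peaks, 28.9 per 100 kb, and 13.7% of its bases under a peak. The 4 strong peaks were spaced across it, with 37.7, 22.8 and 25.1 kb between neighbouring summits. From the lower end they covered chr11:355664-356520, chr11:393055-395593, chr11:416635-417911 and chr11:441704-442195. Their folds were 16.4 (12.9 to 20.6), 18.7 (14.9 to 23.1), 18.9 (15.1 to 23.4) and 19.8 (15.9 to 24.4), and all lay over a background of 3. The intervals of all 4 overlapped.

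The strong PKP3 peak at chr11:393055-395593 was 2539 bp wide, the widest of the 77. Its summit had 1076 bp below it and 1462 bp above it, unlike the one-sided broad peak at DSP. With that DSP peak it made 2 member peaks of at least 2000 bp, 2.60% of the members, beside 0.448% of the list. Further PKP3 peaks close to the threshold of strong ones were at chr11:390229-390507, with a fold of 11.6 (8.69 to 15.2), and at chr11:374245-374796, with 10.3 (7.22 to 14.4). The other 20 had folds from 2.52 to 9.58, and 3 of the window's peaks had a q of 0.05 or more.

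PKP3 had 2.60 times the density of its flanks, 11.1, and 1.54 times that of band 11p15.5, 18.7. With flanks of double length the flanking density was 17.8. Of 90 kb tiles, 1.90% held at least 26 peaks (3.61% in light bands) and 22.1% held a strong one (32.6% in light bands). At least 4 strong peaks, the number at PKP3, were held by 1.12% of all such tiles, and the share in light bands was not computed. Of the strong peaks 2 lay near the ends of the window, 1385 bp from the lower end and 2994 bp from the upper one, and a peak with a fold of 13.5 followed 3319 bp beyond that end. PKP3 lies between B4GALNT4 and SIGIRR in the RefSeq order, and which gene these outer peaks belong to was not analysed here.

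PKP2 encodes plakophilin 2, the plakophilin of simple epithelia and heart muscle. Its window, 32900 to 33090 kb of chromosome 12 in band 12p11.21, was the longest, and its 6 peaks fell into 2 kinds. The 2 strong peaks lay 141.9 kb apart, at chr12:32908043-32909040 with a fold of 19.4 (16.8 to 22.4) and at chr12:33049323-33050314 with a fold of 19.4 (15.5 to 23.9). They had nearly the same width, 998 and 992 bp. The other 4 had folds from 2.20 to 2.38, and none of them had a q under 0.05. No fold between 2.38 and 19.4 occurred there, while every one of the 3 rich windows had peaks in that range.

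The pair in the PKP2 window was equal in fold but not in depth. The lower peak rested on a pileup of 191 over a background of 8 and the upper on 84 over 3. The lower one therefore had the smallest p of all 77 peaks, 7.51e-163, and ranked 1514 by p but 5450 by fold. The upper ranked 6303 by p and 5469 by fold. Both share a mirrored form, with the summit 198 bp from the lower end of the first and 189 bp from the upper end of the second.

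The density at PKP2 was 3.16 peaks per 100 kb, beside 3.68 in the flanks and 3.73 in the band. With flanks of double length the flanking density was 2.11, which puts the window above its flanks. Of 190 kb tiles, 32.7% held at least 6 peaks (49.6% in light bands) and 35.1% held a strong one (49.8% in light bands). At least 2 strong peaks, the number at PKP2, were held by 17.2% of all such tiles, and the share in light bands was not computed. The window is thus ordinary in number and carries 2 peaks in the upper part of the list's folds. PKP2 lies between YARS2 and SYT10 in the RefSeq order. The lower strong peak had its summit 8240 bp from the lower end of the window, on the YARS2 side, and which gene it belongs to was not analysed here.

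**Figure D3:**
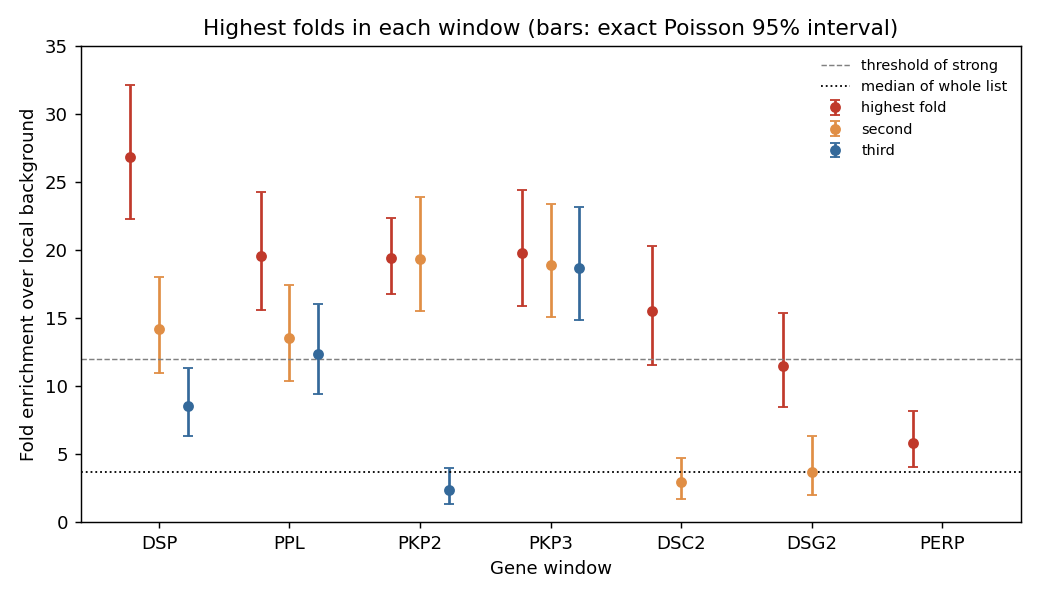
Fold enrichment (vertical axis) of up to 3 highest peaks per gene window, with exact Poisson 95% intervals. The dashed line marks the threshold of strong peaks, 11.99, and the dotted line the median of the list, 3.66. The highest peak of the DSP window, 26.9, stands clear of the second, while the 3 shown for PKP3 and the 2 high ones at PKP2 overlap.

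DSC2 and DSG2 encode the desmocollin and desmoglein of simple epithelia, the adhesive cadherins of the junction. Both lie in band 18q12.1, of the darkest Giemsa class, which held 40 peaks, 5 of them strong. The DSC2 window, 28605 to 28725 kb of chromosome 18, had a strong peak at chr18:28680745-28682120, 1376 bp wide, with a fold of 15.5 (11.6 to 20.3) from a pileup of 50 over a background of 2. A second, weaker peak followed 1105 bp above, at chr18:28682202-28682402, with a fold of 2.93 (1.73 to 4.70) and q = 0.0113. The rest of the DSC2 window held no peak.

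The DSG2 window, 29035 to 29170 kb of the same chromosome, had its main peak at chr18:29077504-29078669, 1166 bp wide and nearly symmetric, with 568 bp below the summit and 597 bp above. Its fold was 11.5 (8.44 to 15.4) from a pileup of 44 over a background of 2.57, just under the threshold of strong peaks. It ranked 12168 by fold. The other peak, 20015 bp below, was of the smallest width in the list, 135 bp, with a fold of 3.67 (2.0 to 6.30) and q = 0.00151. The intervals of the DSC2 and DSG2 main peaks overlapped.

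The cadherin genes form a cluster, and the RefSeq order places DSC1, DSG1, DSG4 and DSG3 between DSC2 and DSG2. The 310 kb between the 2 windows held 4 peaks and no strong one, in a band with only 0.0649 strong peaks per 100 kb. Their folds were 3.06, 3.59, 4.20 and 3.27, from the lower to the upper end, and the highest of them had an interval from 2.71 to 6.26. That interval did not overlap those of the DSC2 and DSG2 main peaks. The other 3 had upper limits of at most 6.30, which are below both as well. The main peaks were picked as the highest of their windows, so this gap is partly built in. The second peaks of the windows, with intervals of 1.73 to 4.70 at DSC2 and 2.0 to 6.30 at DSG2, overlapped all 4 peaks of the stretch. In density the windows and the stretch differed less, with 1.67 peaks per 100 kb in the DSC2 window and 1.48 in the DSG2 window, against 1.29 between them. The genes in the stretch are cadherins best known from stratified epithelia and hair, and its peaks were not assigned to any of them.

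In number the cadherin windows were unremarkable. At least 2 peaks were found in 50.9% of 120 kb tiles and in 53.8% of 135 kb tiles, and a strong one in 26.9% and 28.9%. Against their band, at 0.519 peaks per 100 kb, the windows were 3.21 times denser at DSC2 and 2.85 times at DSG2. The flanks had 0.833 peaks per 100 kb at DSC2 and no peak at DSG2, but with flanks of double length the flanking densities were 1.67 and 1.48, the same as in the windows. The windows rest on 2 peaks each.

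PERP had a single peak in its window, 138370 to 138470 kb of chromosome 6 in band 6q23.3. It covered chr6:138428136-138429169 with a fold of 5.84 (4.03 to 8.21), from a pileup of 31 over a background of 4, and the authors' q was 3.04e-13. It was 1034 bp wide with its summit 117 bp from the upper end. In the list 63.3% of 100 kb tiles held at least 1 peak, and 23.8% a strong one (34.7% in light bands). A higher peak, with a fold of 24.7, lay 13.7 kb beyond the upper end of the window, on the side of ARFGEF3 in the RefSeq order, and is not counted here.

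The PERP peak was low for its width. Of 1202 peaks of 1000 to 1099 bp in the list, 6.82% had a fold no higher than 5.84, and their median fold was 14.8. Of the 77 members, 8 were at least 1000 bp wide, or 10.4%, against 5.05% of the list, and they came from the windows of 6 genes. The strong member peaks had a median width of 995 bp, beside 818 bp for all strong peaks, and the other members 230 bp, beside 201 bp. The highest peak by fold was also the one with the smallest p in all 7 windows, and the widest in 4, those of PKP2, DSC2, DSG2 and PERP. PERP, with its single peak, meets both by construction, and fold and p rest on the same pileup and background. In the DSP, PPL and PKP3 windows another peak was wider than the highest.

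**Figure D4:**
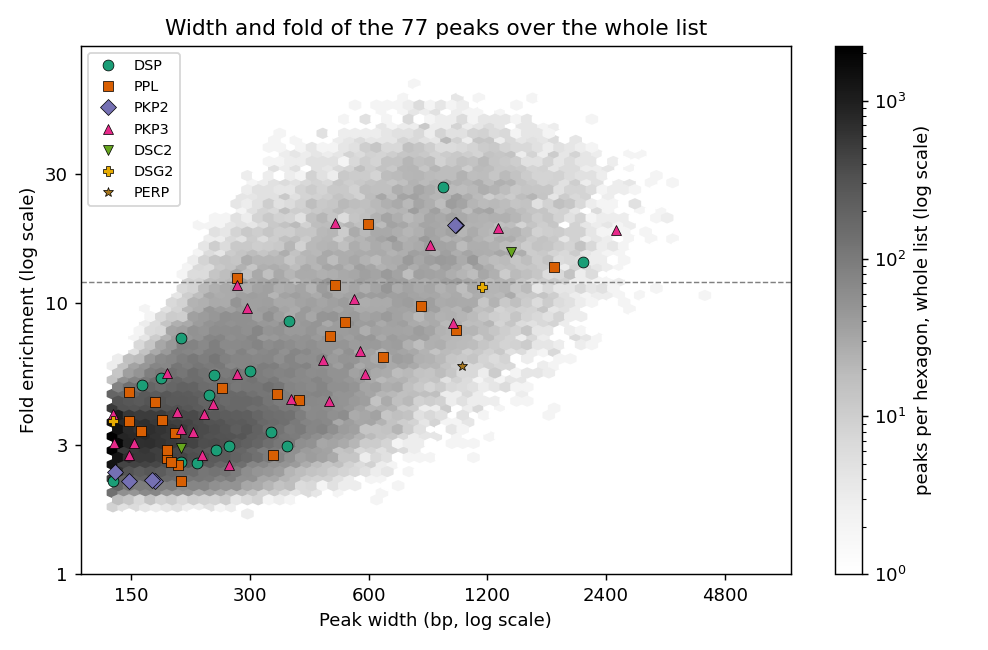
Fold enrichment (vertical axis, log scale) against peak width in bp (horizontal axis, log scale) of the 77 member peaks, by gene, over all 115384 peaks shown as grey hexagons. The dashed line is the threshold of strong peaks. The members follow the spread of the list, with PERP (1034 bp, fold 5.84) low for its width.

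ETS factors bind DNA around a GGAA core, and the promoters of the members were read for it. RefSeq promoter sequences, 300 bases around a gene start, were found for 4 of the 7 genes: DSP, PERP, DSG2 and DSC2, which has 2 starts. Those of PKP2, PKP3 and PPL were not used here. These sequences are on GRCh38.p14, whose positions are not comparable with the hg19 positions of the peaks, and whether a peak covers them was not analysed here. Below, 3 are shown because they span what was found: the start with the most cores, the only one with a longer ETS motif, and that of DSP. The DSP window held the highest peak, which was not assigned to a gene. Capitals mark GGAA, or TTCC where the core is on the opposite strand.
DSC2, lower start, chr18:31101211-31101510, minus strand: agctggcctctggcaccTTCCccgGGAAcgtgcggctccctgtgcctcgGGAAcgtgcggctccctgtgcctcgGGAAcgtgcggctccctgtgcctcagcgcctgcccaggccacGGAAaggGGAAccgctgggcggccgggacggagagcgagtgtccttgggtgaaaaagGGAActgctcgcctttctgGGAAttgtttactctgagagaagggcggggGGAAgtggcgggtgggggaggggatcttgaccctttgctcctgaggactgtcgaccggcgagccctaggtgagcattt
PERP, chr6:138107370-138107669, minus strand: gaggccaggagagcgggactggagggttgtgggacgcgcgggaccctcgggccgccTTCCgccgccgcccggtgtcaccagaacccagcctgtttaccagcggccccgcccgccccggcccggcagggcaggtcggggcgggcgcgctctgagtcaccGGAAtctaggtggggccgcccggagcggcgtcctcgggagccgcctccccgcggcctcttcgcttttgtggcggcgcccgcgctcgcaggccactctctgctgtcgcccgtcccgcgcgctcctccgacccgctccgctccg
DSP, chr6:7541421-7541720, plus strand: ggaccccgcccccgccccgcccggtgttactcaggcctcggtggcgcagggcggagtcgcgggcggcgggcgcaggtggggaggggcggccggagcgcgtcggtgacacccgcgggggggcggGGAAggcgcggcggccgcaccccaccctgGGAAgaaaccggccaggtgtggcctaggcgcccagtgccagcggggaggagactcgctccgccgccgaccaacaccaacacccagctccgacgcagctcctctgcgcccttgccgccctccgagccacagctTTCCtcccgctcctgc

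All 5 promoters held the core, as did 95.5% of 35116 RefSeq promoters of the same length, so its presence does not set them apart. The number of cores differed, from 9 at the lower DSC2 start to 3 at DSP, 2 at PERP and 1 each at DSG2 and the upper DSC2 start. How this number varies over all promoters was not computed, so none of these counts can be called high or low. At the lower DSC2 start 8 of the 9 read GGAA on the gene's strand, and 3 of them lay in a short unit repeated in tandem. The longer motif CGGAAG, on either strand, was found in the PERP promoter alone, and in 19.5% of all promoters. AGGAAG, on either strand, was found in none of the 5, and in 33.6% of all promoters. The motifs can overlap, and the shares are not exclusive, since 46.9% of all promoters held either. A match describes the letters and is not a binding site.

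The position of the windows affects which peaks are counted. With each window shortened by 10 kb at both ends, 66 peaks and 8 strong ones remained, the strong peaks lost being 2 at PKP3, 1 at PPL and 1 at PKP2. With each lengthened by 10 kb, 85 peaks and 13 strong ones were counted, the added strong peak being at PKP3. The counts at DSC2, DSG2 and PERP were the same under both changes. Summits within 1 kb of the next numbered 14, and joining them gave 63 sites.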

How the data were processed

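Per the labels, ELF5 ChIP DNA from T47D (3 replicates) and 1 input were sequenced from size-selected fragments. The build is hg19, per the file headers and also per the submitters' processing notes. Not given in the sources used here are the aligner, caller, threshold, role of the input and any pooling. The track name leaves unclear whether the list rests on all replicates. The authors' deposited score was 10 times the −log10 p, cut to a whole number, in all 115384 rows. The deposited −log10 p and −log10 q were taken unchanged. The deposited signal was read as fold enrichment, a ratio to local background.

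Pileups were recovered as the whole numbers that, multiplied by 0.910, gave both the fold (with 1 added to pileup and background) and the Poisson p, each p to within 0.001 of −log10 p. A second solution existed at 95 peaks, of which 0 were members. Pileups and backgrounds are thus inferred, and the total reads per sample are unknown. On simulated data (5000 peaks, true factor 0.7731) the recovery was right for 99.2%. The simulated pileups spanned a narrower range than those of the members, 8 to 191, so this share does not cover the lowest and highest of them. Tiles were non-overlapping stretches of each window's length from the start of each of 23 chromosomes, assembly gaps included. Bands came from circlize 0.4.16 (R 4.3.3). Gene order came from the RefSeq table of GRCh38.p14, which may differ from hg19. Tools were scipy 1.17.1, numpy 2.4.6 and pandas 2.3.3 under Python 3.11.15, with matplotlib 3.10.9 for figures. The named peaks were, per window, the 3 highest folds, the strong peaks, the widest and the one of smallest p. Others named, and the stretches beyond the windows, were chosen after their values were seen. The members and lists were chosen with earlier results of these data known. JUP, PKP1, PKP4 and EVPL were not analysed here.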

Additional observations from a re-analysis of the deposited data

How the results depend on the processing

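Of 53 alternative values for the count, density, median fold and share of strong peaks, 46 stayed within 1.5 times the count or density, or within the 95% interval of the median or share. Many of these could hardly move. Leaving out DSC2, DSG2 or PERP removes 2, 2 or 1 peaks, counting any overlap with a window changed no value, and the interval of the share is wide. The 7 that moved came from stricter selection by construction, from another threshold of strong peaks or from leaving out 1 gene. With −log10 q of 5 or more, there were 41 peaks, at 4.56 per 100 kb, with a median fold of 8.44, and 29.3% were strong. This cut removes low folds from the whole list too, where 42380 peaks pass it and 11542 are strong. The 29.3%, or 12 of 41, is therefore to be set beside 11542 of 42380 in the list, a share close to it. It is not to be set beside the 10.0% of the uncut list. With the highest 5% of folds as strong the share was 7.79%, and with the highest 20% it was 32.5%. Without PKP3, 51 peaks were counted, and leaving out other genes gave 53 to 76. Tiles confined to light Giemsa bands, an alternative added after seeing the data, held at least as many peaks in 15.6% of cases for DSP, 8.93% for PPL, 3.61% for PKP3, 49.6% for PKP2, 67.3% for DSC2, 70.1% for DSG2 and 77.5% for PERP. The first 4 are over 1.5 times the shares of all tiles. The DSP, DSC2 and DSG2 windows do not themselves lie in light bands. Replicates could not be left out in turn. No paired analysis was possible because single replicates have no values here.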
